A study of Bos taurus with 11 samples.

Results

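The 100 most abundant transcripts of the bovine inner cell mass (ICM) were described, out of 37925 transcripts quantified in every library. They were chosen by their level: the TPM of each transcript was averaged over all 11 pools of ICM and the 100 highest means were kept. TPM, a unit of abundance, is the share of RNA molecules assigned to a transcript after correction for the length on which reads can fall, so levels of different transcripts can be compared on it. Levels and shares of TPM over all pools are therefore a description of the choice and were not tested. The choice did not use the treatment groups. A member near its edge can still owe its place to a group in which it is high.

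Each pool was 1 library of ICM isolated on day 7 from blastocysts produced in vitro, with 8 to 11 ICM a pool. Immunosurgery and manual dissection were used to remove the trophectoderm. For the 3 “SC” pools the media of maturation and development held serum, with estradiol, FSH and LH in the maturation medium. The 4 “SF” pools came from serum-free media, with albumin in maturation and the DMSO vehicle in maturation and fertilization, and the 4 “SF + PGE2” pools from the same media with prostaglandin E2 (PGE2), which acts on cells through its own membrane receptors. Epidermal growth factor in the maturation medium and the semen of a single bull were shared by all groups. For development the methods name a commercial synthetic oviduct fluid in “SC” and a modified one in the serum-free groups. Serum, hormones and these other differences of the media, with albumin in maturation and DMSO among them, cannot be told apart in a comparison with “SC”. The sample labels place serum in fertilization too and PGE2 in embryo development too, where the methods of the study do not. The libraries were full-length cDNA (SMART-Seq v4) cut by a transposase, without molecular identifiers or strand marks.

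The ICM is the group of cells inside the blastocyst from which the epiblast and the hypoblast arise. In most cells a small number of transcripts holds a large share of messenger RNA, and among them are usually those of ribosomal proteins, translation factors, structural proteins and energy metabolism, including the few proteins that mitochondria encode in their own genome. None of the 100 identifiers was paired with a gene name in the tables used here (0 matched), so members are given by Ensembl transcript identifier and by rank, rank 1 being the highest mean TPM, and no function is assigned to them. For the same reason the ICM label was not checked against markers of the epiblast, hypoblast, trophectoderm or cumulus cells. Salmon, with which the authors assigned reads to transcripts, divides reads among transcripts of similar sequence, so the level of a member can depend on this division. In pools of cells, fewer cells of a type and less RNA per cell cannot be told apart.

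The members were 0.264% of the transcripts and held 31.0% of all TPM. The total estimated count of a pool (Salmon's NumReads) lay between 29.6 M and 40.6 M, and the members took between 18.03% and 22.7% of it. No member had a count of 0 in any pool, and the lowest estimated count of a member in a pool was 2442. Counting error was therefore small for every member, as far as reads that PCR has copied can be taken as molecules.

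The level fell steeply over the first ranks and slowly after them. The first 10 members, from 18728 to 6508 TPM, held 9.49% of all TPM, ranks 11 to 50 held 13.3% and ranks 51 to 100 held 8.26%. Only 3 members reached 1% of TPM, and 54 reached 2000 TPM. Past the members the sum went on without a step: 200 transcripts held 41.1% of TPM, 342 held 50% and 1000 held 69.4%.

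**Figure D1:**
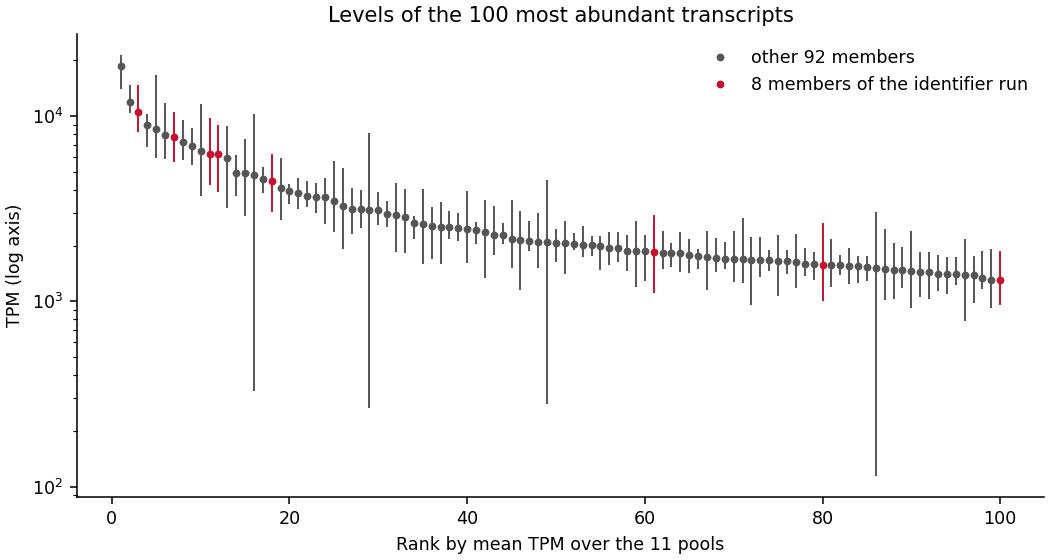
TPM (log axis) of the 100 members against their rank, points for the mean over the 11 pools and lines from lowest to highest pool. The 8 members of a run of neighbouring identifiers are in another colour. The mean falls from 18728 TPM at rank 1 to 1304 TPM at rank 100.

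The most abundant member was ENSBTAT00000015924.5, a transcript of 519 bases at 18728 TPM ± 2380 (SD, n = 11), or 1.87% of all TPM. Its TPM was 15520, 18323 and 19434 in the “SC” pools, 21041, 17246, 21303 and 21468 in the “SF” pools, and 19801, 18435, 19433 and 14007 in the “SF + PGE2” pools. It was first in 10 of the 11 pools, and the ranges of the groups overlapped. In “SF + PGE2” replicate 37 it was passed by ENSBTAT00000060566.1, which is at rank 3.

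ENSBTAT00000036888.5, at rank 2, is much longer (1835 bases) and had 11966 TPM ± 1480 (SD, n = 11). Its TPM was 14244, 10958 and 14744 in “SC”, 10341, 12982, 10571 and 10907 in “SF”, and 11164, 11449, 11751 and 12512 in “SF + PGE2”. It had a mean estimated count of 594791 against 87856 for rank 1, so the order of these transcripts by reads was the reverse of their order by TPM. Ranks 3 to 10 were ENSBTAT00000060566.1, ENSBTAT00000014853.5, ENSBTAT00000007429.4, ENSBTAT00000022919.3, ENSBTAT00000060549.1, ENSBTAT00000009965.5, ENSBTAT00000008132.5 and ENSBTAT00000065027.2, with means between 10534 and 6508 TPM.

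The edge of the choice was not sharp. The members at ranks 96 to 100 had means of 1392, 1379, 1328, 1305 and 1304 TPM, and the 5 transcripts that follow them had 1299, 1285, 1265, 1261 and 1257 TPM. The SD over the pools was 315 TPM for the last member and 441 TPM for the first transcript left out, far more than the difference between their means. The last member had group means of 1562 TPM in “SC”, 1094 in “SF” and 1321 in “SF + PGE2”, so its place rests in part on the “SC” pools. Over the pools, 67 members were among the 100 highest transcripts of every pool, and 145 transcripts, 45 of them not members, were among the 100 highest of at least 1 pool. The list of a single pool shared 86 to 96 transcripts with the members, with the fewest in “SF” replicate 35. In 10 pools the lowest place taken by a member was between 115 and 184, and in “SF” replicate 35 it was 1480.

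The members were short. Their median length was 930.5 bases, with quartiles of 649 and 1359 bases, against a median of 2016 over all transcripts and of 1180 over the 900 transcripts that come next in level. Of the members, 20 were under 600 bases (20%), against 7.69% of all transcripts and 14.4% of the next 900. The shortest were ENSBTAT00000072672.1 (234 bases, rank 50), ENSBTAT00000044991.3 (282 bases, rank 36) and ENSBTAT00000020267.3 (321 bases, rank 71). The longest were ENSBTAT00000001108.6 (2573 bases, rank 16), ENSBTAT00000057533.3 (2541 bases, rank 72) and ENSBTAT00000016242.6 (2503 bases, rank 54). The length of a transcript is part of its TPM, because Salmon divides its reads by an effective length, which is the length left once the size of the sequenced fragments is taken off.

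This division is large for a short transcript. The effective length was 49.9% of the length in the median member, between 19.1% and 81.7%, and 60.2% in the median transcript of the next 900. Rank 1 had an effective length of 128 bases out of 519. When the 100 highest were chosen by mean estimated count in place of TPM, 50 of the members were among them, the median length was 1842.5 bases, and 1 of the 20 members under 600 bases was kept. With the estimated count per base of full length, a choice added after the data had been seen, 77 members were kept and 6 of the 20 short ones. The median length of the members that dropped out was 661 and 528 bases for these choices. Choices that kept TPM but averaged it in another way changed little: 99 members were kept with the mean of the group means and 98 with the median over pools.

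The share of a pool held by the members was nearly the same in all pools. In TPM it was 31.3%, 32.0% and 32.2% in the “SC” pools, 30.7%, 29.7%, 32.2% and 31.3% in the “SF” pools, and 29.7%, 30.01%, 31.7% and 30.4% in the “SF + PGE2” pools. The groups overlapped, with means of 31.8% ± 0.493 (SD, n = 3), 31.0% ± 1.04 (SD, n = 4) and 30.5% ± 0.847 (SD, n = 4). In estimated counts the share was 20.6%, 20.1% and 22.7% in “SC”, 18.9%, 18.03%, 21.2% and 19.6% in “SF”, and 18.5%, 18.8%, 20.3% and 19.7% in “SF + PGE2”. Here “SC” replicate 33 was the highest pool and “SF” replicate 3 the lowest, and the groups again overlapped.

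Evenness describes how equally TPM is spread among the members and is 1 when all have the same level (Pielou's index, the Shannon entropy over its maximum). The mean ± SD of evenness was 0.939 ± 0.00277 over the 3 “SC” pools, 0.941 ± 0.00395 over the 4 “SF” pools and 0.944 ± 0.00191 over the 4 “SF + PGE2” pools. Between 21 and 24 members held 50% of the members' TPM, 21 or 22 in the “SC” pools, 22 or 23 in “SF” and 23 or 24 in “SF + PGE2”. The 9 differences of these 3 measures between groups were tested by exact two-sided permutation tests, for which 3 pools against 4 or 4 against 4 allow no p below 0.0286. For “SC” against “SF + PGE2” the exact p was 0.0857 for the share of TPM, for the share of counts and for evenness, and 0.257 for each after Benjamini-Hochberg adjustment over the 9. The other exact p-values lay between 0.2 and 0.857. None of the 9 differences passed the threshold of 0.05. When the 50 highest transcripts were used in place of 100, the mean share was higher in “SC” than in “SF + PGE2” by 1.51 percentage points of TPM and by 1.87 points of counts, with an unadjusted exact p of 0.0286 for each. With the 200 highest the differences were 1.23 and 1.84 points, with an exact p of 0.143 and 0.114.

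**Figure D2:**
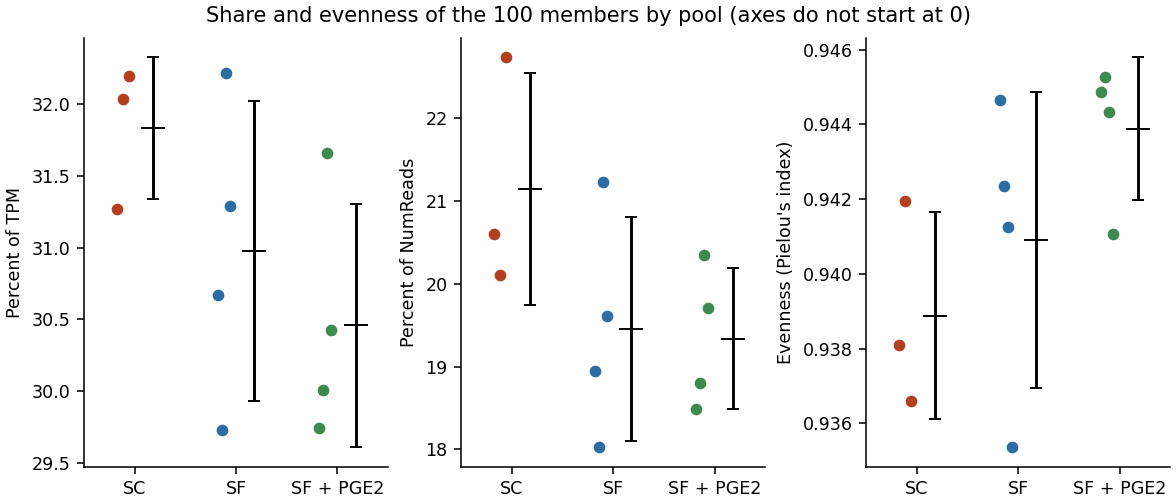
Share of TPM (percent), share of estimated counts (percent) and evenness of the members by pool, points for pools and bars for the mean ± SD of a group. The TPM shares lie between 29.7% and 32.2% and the groups overlap in each panel.

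Most members varied little between pools. The coefficient of variation (CV) of TPM over the 11 pools had a median of 16.1%. It was under 10% for 14 members, from 10 to 20% for 48, from 20 to 30% for 23 and 30% or more for 15. The SD of log2 TPM within groups had a median of 0.22 over the members and 0.22 over the next 900 transcripts, against 0.48 over the 15214 transcripts above 0 in every pool. A lower spread than that of all transcripts was thus shared with the transcripts that come after the members.

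The steadiest member was ENSBTAT00000003962.6, at rank 52, with a CV of 6.43%. Its TPM was 2114, 2086 and 2185 in “SC”, 1960, 1982, 2076 and 2323 in “SF”, and 1945, 1898, 1933 and 1932 in “SF + PGE2”. Its highest pool was 1.22 times its lowest. The next 4 were ENSBTAT00000063023.2, ENSBTAT00000014162.3, ENSBTAT00000019643.5 and ENSBTAT00000013079.3, at ranks 44, 82, 20 and 34, with CVs of 7.13%, 7.20%, 7.69% and 7.89%.

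The most variable members formed a group that rose and fell together over the pools. ENSBTAT00000043753.3 (rank 29, CV 66.0%) had 5005, 2606 and 8060 TPM in the “SC” pools, 1909, 1338, 3091 and 266 in “SF”, and 2435, 2911, 2711 and 4032 in “SF + PGE2”. ENSBTAT00000001108.6 (rank 16, CV 57.7%) had 8391, 3967 and 10287 TPM in “SC”, 3248, 2259, 6175 and 328 in “SF”, and 4158, 5592, 3869 and 4413 in “SF + PGE2”. Both were highest in “SC” replicate 33 and lowest in “SF” replicate 35, where they were 30.3 and 31.3 times lower. ENSBTAT00000001988.6 (rank 86, CV 56.2%) and ENSBTAT00000006450.6 (rank 49, CV 53.5%) had the same highest and the same lowest pool, with ranges of 114 to 3017 and 280 to 4525 TPM.

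Over the 11 pools the log2 TPM of ranks 16, 49 and 86 had a Pearson r of 0.98, 0.97 and 0.96 with that of rank 29. This describes 11 pools that share library preparation and transcripts set side by side because they varied most. On the log2 scale the very low values in “SF” replicate 35 weigh heavily, and r was not computed without that pool. The members next most like rank 29 were at ranks 27, 37 and 96, with r of 0.90, 0.87 and 0.85. Together the 4 most variable members held 0.0988% of TPM in “SF” replicate 35 and between 0.550% and 2.59% in the other pools. By group the mean ± SD of their share was 1.80% ± 0.817 over the 3 “SC” pools, 0.698% ± 0.539 over the 4 “SF” pools and 1.12% ± 0.162 over the 4 “SF + PGE2” pools. The fifth most variable member, ENSBTAT00000007429.4 (rank 5, CV 37.5%), went the other way in that pool. It had 16610 TPM in “SF” replicate 35 and between 5901 and 12149 TPM in the other 10 pools.

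**Figure D3:**
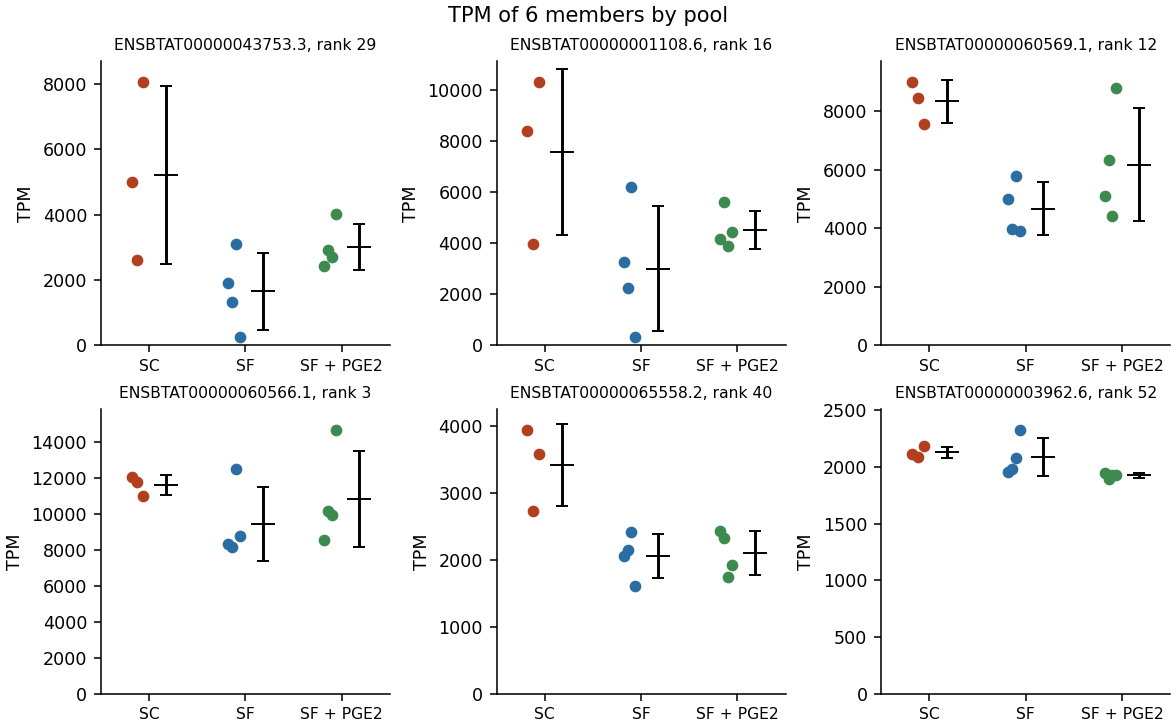
TPM of 6 members by pool (linear axes from 0), points for pools and bars for the mean ± SD of a group. Ranks 29 and 16 range from 266 and 328 TPM in “SF” replicate 35 to 8060 and 10287 TPM in “SC” replicate 33, while rank 52 stays between 1898 and 2323 TPM.

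A run of neighbouring identifiers stood out among the members. Of the 16 identifiers numbered 60539 to 60577 in the files, 8 were members, at ranks 3, 7, 11, 12, 18, 61, 80 and 100. In this run 13 identifiers had, each to the base, the length that the RefSeq table of assembly ARS-UCD2.0 gives for 1 of the 13 protein genes of the mitochondrial genome. This is a match of length and not of identifier, and each of these lengths was held by 2 to 26 transcripts of the whole file, so no name was assigned. The first and last of the matching identifiers set the ends of the run, so the match of length is part of its definition. The other 3 identifiers of the run had a mean of at most 9.59 TPM. The mitochondrial protein genes encode subunits of the respiratory chain and of ATP synthase, which make most of the ATP of a cell with active mitochondria.

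Among the 8 members of the run, those of the lengths of the cytochrome c oxidase subunits COX3, COX2 and COX1 were at ranks 3, 7 and 12, that of the ATP synthase subunit ATP6 at rank 11 and that of cytochrome b (CYTB) at rank 18. Those of the lengths of the NADH dehydrogenase subunits ND4, ND2 and ND6 were lower, at ranks 61, 80 and 100. The 5 that were not members, of the lengths of ND5, ND1, ND4L, ATP8 and ND3, were at ranks 152, 213, 443, 609 and 685. The order by TPM within the run thus went from the oxidase, ATP6 and cytochrome b lengths to the dehydrogenase lengths, with those of ATP8, ND4L and ND3, the shortest, far down. At 201, 297 and 346 bases these last are shorter than the 426 to 492 bases taken off long transcripts for fragment size. Their ranks cannot be told apart from an effect of length. Without strand marks, reads from either strand also count for a transcript.

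The 8 members of the run held 5.18%, 5.16% and 4.33% of TPM in the “SC” pools, 3.22%, 3.09%, 4.17% and 2.95% in the “SF” pools, and 3.04%, 3.76%, 3.39% and 5.61% in the “SF + PGE2” pools. Every “SC” pool was above every “SF” pool. “SF + PGE2” replicate 37 was the highest pool of all, and the other 3 of its group lay below “SC”. ENSBTAT00000060569.1, at rank 12 and of the length of COX1, had 8992, 8468 and 7554 TPM in “SC”, 5006, 3969, 5801 and 3898 in “SF”, and 5105, 6348, 4413 and 8800 in “SF + PGE2”. ENSBTAT00000060566.1, at rank 3 and of the length of COX3, had 12053, 11792 and 10992 TPM in “SC”, 8312, 8153, 12510 and 8762 in “SF”, and 8525, 10169, 9958 and 14645 in “SF + PGE2”. For rank 12 no “SF” pool reached an “SC” pool, while for rank 3 the “SF” replicate 13 was above all 3 “SC” pools. Of the 8, 6 had their highest value in “SF + PGE2” replicate 37 and 5 their lowest in “SF + PGE2” replicate 5.

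The 20 members under 600 bases also had pools of their own. They held 8.62% of TPM in “SF” replicate 35, 5.40% in “SF + PGE2” replicate 37 and between 6.56% and 7.67% in the other 9 pools. Of the 20, 11 were highest in “SF” replicate 35 and 13 were lowest in “SF + PGE2” replicate 37. The length that Salmon took off for fragment size moved with this. Its median over transcripts longer than 3000 bases was 426 bases in “SF” replicate 35, the smallest, and 492 bases in “SF + PGE2” replicate 37, the largest. Over the 11 pools the share of the short members fell as this length grew (Pearson r = -0.77, p = 0.00401; Spearman rho = -0.82, p = 0.00328; two-sided permutation tests with 100000 resamples, the same values after Benjamini-Hochberg adjustment over 2 relations). Without the 2 pools farthest from the median length, “SF” replicate 35 and “SF + PGE2” replicate 5, r was -0.75 and rho -0.87 over 9 pools. TPM is itself divided by a length made from this quantity. The share of estimated counts held by the short members, which is not divided by any length, had r = -0.82 (permutation p = 0.00258, adjusted 0.00401) and rho = -0.84 (permutation p = 0.00239, adjusted 0.00328) with it. Without the same 2 pools these were -0.79 and -0.80. Reads that can fall on a short transcript also depend on fragment size, so the counts are not free of it. The permutations shuffled the pools without regard to group. The part of fragment size in the levels of the short members was not tested.

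**Figure D4:**
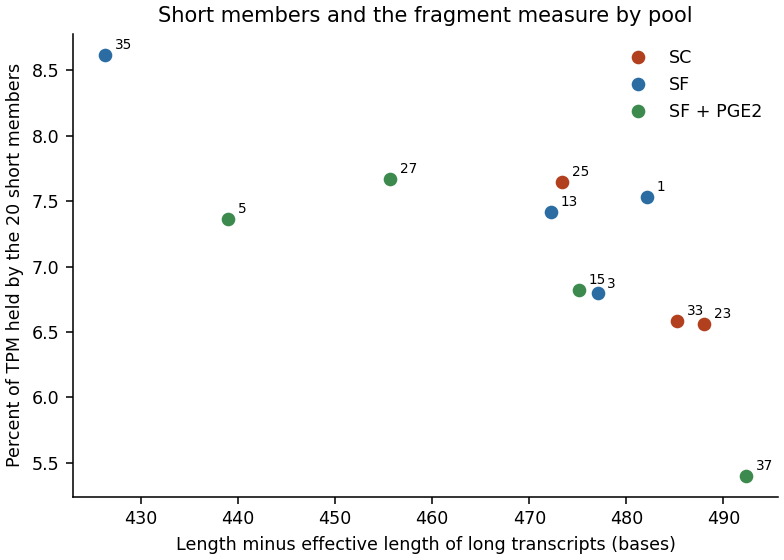
Share of TPM held by the 20 members under 600 bases (percent) against the length taken off for fragment size (bases), a point for each pool. “SF” replicate 35 is at 426 bases and 8.62%, “SF + PGE2” replicate 37 at 492 bases and 5.40%.

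“SF” replicate 35 and “SF + PGE2” replicate 37 set many of the members' extremes. The first was the highest pool for 32 members and the lowest for 17, and the second was the highest for 11 and the lowest for 28. No pools held identical values. Over the members the median absolute log2 ratio of TPM was 0.12 to 0.35 between pools of the same group and 0.16 to 0.49 between pools of different groups, so the ranges overlapped. The embryos were produced in several sessions that each held all 3 conditions, but the sources used here do not tie the pools to sessions, so pools of different groups may share a session and no term for it was fitted.

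**Figure D5:**
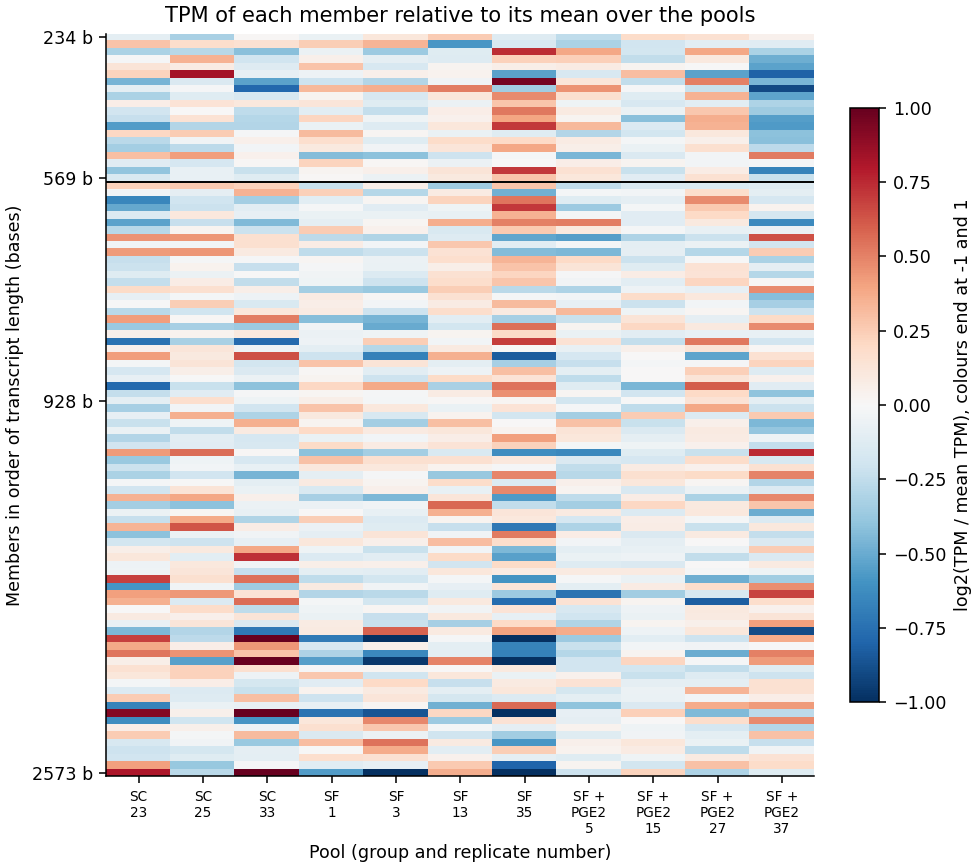
Log2 of TPM over the mean TPM of the member, with a row for each of the 100 members in order of length and a column for each pool (colours end at -1 and 1, black line at 600 bases). In the rows above the line “SF” replicate 35 is mostly red and “SF + PGE2” replicate 37 mostly blue, with 11 and 13 of the 20 members at their highest and lowest there.

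The comparison of “SC” with “SF” asked how the members' levels went with serum, hormones and the other differences of the media, which it cannot tell apart. The 8 members of the run had higher mean levels in “SC”, most of the other members had lower ones, and no member passed the adjusted threshold. All transcripts were tested in one fit by edgeR's quasi-likelihood test on rounded estimated counts with an offset for effective length (22067 tested, all 100 members among them). By this test 0 members were called at a Benjamini-Hochberg adjusted p under 0.05, where the background was 0% higher and 0.0136% lower in “SC”, 3 transcripts in all. At an unadjusted p under 0.05 there were 24 members, against 11.8% of all transcripts tested. Here and in the later comparisons the background takes in transcripts of all levels and is not matched to the members. The median SD of log2 TPM within groups was 0.22 for the members and 0.48 over the transcripts above 0 in every pool. No share was computed for transcripts of similar level, so a share above the background cannot be read as particular to the members. Of these, 14 were higher in “SC” (background 5.11%) and 10 lower (background 6.67%). The smallest adjusted p of a member was 0.151. DESeq2 called 5 members, all higher in “SC” (background 1.59% higher and 2.5% lower, 859 transcripts in all), and limma-voom called 0 members and 0 transcripts. The split of the 24 members by direction rested on single pools. It was 12 higher and 2 lower without “SC” replicate 23, 11 and 3 without “SC” replicate 33, and 9 and 8 without “SF” replicate 1. It turned to 7 higher and 13 lower without “SF” replicate 3, and was 20 and 5 without “SF” replicate 13. Without “SF” replicate 35 it was 16 and 4. In these fits the background in either direction lay between 8.14% (without “SC” replicate 23) and 12.6% (without “SF” replicate 13).

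ENSBTAT00000065558.2, at rank 40, had the smallest p of the members. Its TPM was 3937, 2733 and 3590 in “SC”, 2052, 2148, 2410 and 1612 in “SF”, and 2425, 2334, 1742 and 1917 in “SF + PGE2”. Every “SC” pool was above every serum-free pool. Its log2 fold change of “SC” over “SF” was 0.73 (SE 0.152, edgeR adjusted p = 0.151), with an adjusted p of 0.000494 by DESeq2. ENSBTAT00000002055.6, at rank 35, had 0.63 (SE 0.160, edgeR adjusted p = 0.200, DESeq2 adjusted p = 0.00624). The other 3 of the 5 members with the smallest p were at ranks 48, 12 and 37, with log2 fold changes of 0.64, 0.83 and 0.51 and no overlap between the groups in TPM. They are also the other 3 members called by DESeq2.

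Over all members the median log2 fold change of “SC” over “SF” was -0.10, with 38 above 0 and 62 below, and over all transcripts tested it was -0.03. The median was -0.18 without “SF” replicate 3, -0.04 without “SC” replicate 23 and -0.01 without “SF” replicate 35, with 48 members above 0 and 52 below in the last case. In TPM, 12 members were higher in every “SC” pool than in any “SF” pool (background 5.06%) and 15 were lower (background 6.08%). Of the 12, 5 were in the run, among them rank 100, whose place among the members rests in part on its “SC” pools. All 8 members of the run had a log2 fold change above 0, between 0.28 and 0.83 with a median of 0.56. Of the 8, 5 had an unadjusted p under 0.05, against 11.8% of all transcripts tested, while the smallest adjusted p was 0.205. The 5 became 1 without “SC” replicate 25 or “SF” replicate 3 and 2 without “SF” replicate 1. All 8 stayed above 0 with other scaling, with limma-voom, without the length offset and without any single pool. Many of the 8 shared their highest and lowest pools, as given above, so their directions are not independent of each other. Of the 92 members outside the run, 30 were above 0 and 62 below, and without “SF” replicate 35 these were 40 and 52.

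The members that were lower in “SC” were named after their values had been seen, as the 2 with the smallest p among those with a log2 fold change below 0. ENSBTAT00000044397.3, at rank 26, had 1961, 2614 and 1911 TPM in “SC”, 3153, 3879, 3206 and 5271 in “SF”, and 3608, 2770, 4708 and 2867 in “SF + PGE2”, with a log2 fold change of -0.86 (SE 0.279, edgeR adjusted p = 0.279). ENSBTAT00000050490.2, at rank 13, had 4329, 4815 and 3595 TPM in “SC”, 6293, 8877, 6292 and 7793 in “SF”, and 7642, 5703, 6386 and 3179 in “SF + PGE2”, with -0.79 (SE 0.258, edgeR adjusted p = 0.284). Rank 26 was lower in “SC” than in every serum-free pool, and for rank 13 the “SF + PGE2” replicate 37 was the lowest pool of all.

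The 4 most variable members had the largest differences between the means. They were chosen by their CV over all pools, so a wide spread follows from the choice and large differences between groups are favoured by it. Their log2 fold changes of “SC” over “SF” lay between 0.93 and 1.68, with a smallest adjusted p of 0.323. All 4 overlapped between the groups. Without “SF” replicate 35 the log2 fold changes were 0.61 to 1.34, and without “SF” replicate 13 they were 1.62 to 2.23. Without “SC” replicate 33 that of rank 49 was 0.33, against 0.93 with all pools.

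The comparison of “SC” with “SF + PGE2” rests on the same 3 “SC” pools as the first, so the values are given side by side and are not independent. Members with an unadjusted p under 0.05 were nearly all higher in “SC” here, and again none passed the adjusted threshold. edgeR called 0 members (background 0.0136% higher and 0.0227% lower in “SC”, 8 transcripts in all), with a smallest adjusted p of 0.211. At an unadjusted p under 0.05 there were 18 members against 9.17% of all transcripts tested, 17 of them higher in “SC” (background 3.69%) and 1 lower (background 5.48%). DESeq2 called 4 members, at ranks 40, 31, 37 and 35, all higher in “SC” (background 0.673% higher and 1.66% lower, 500 transcripts in all), and limma-voom called 0 members and 0 transcripts. Without “SC” replicate 23 there were 11 members in place of 18 (background 6.58%), all 11 higher in “SC”. The 17 higher members were 11 as well, of 13 in either direction, without “SF + PGE2” replicate 5 or 15 (background 8.25% and 7.94%).

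Rank 40, whose values are given above, had a log2 fold change of 0.80 (SE 0.152, edgeR adjusted p = 0.211), against 0.73 over “SF”. ENSBTAT00000040082.5, at rank 31, had 3312, 3491 and 3330 TPM in “SC”, 2952, 3017, 2976 and 3179 in “SF”, and 2607, 2620, 2503 and 2740 in “SF + PGE2”. The 3 groups did not overlap in this member, with “SC” highest and “SF + PGE2” lowest, and its log2 fold change of “SC” over “SF + PGE2” was 0.47 (SE 0.106, edgeR adjusted p = 0.291). Ranks 37, 35 and 58 had 0.47, 0.54 and 0.51. Over all members the median log2 fold change was 0.08, with 65 above 0 and 35 below, against -0.03 over all transcripts tested. The median was 0.14 without “SC” replicate 23 and 0.16 without “SF + PGE2” replicate 27. It was 0.05 without “SC” replicate 25, “SF + PGE2” replicate 15 or “SF + PGE2” replicate 37, and 0.04 without the length offset. Of the 92 members outside the run, 57 were above 0 and 35 below with all pools, and 46 and 46 without “SF + PGE2” replicate 37. In TPM, 7 members were higher in every “SC” pool (background 2.97%) and 5 were lower (background 6.95%).

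The run was less separated in this comparison. All 8 of its members had a log2 fold change above 0, between 0.20 and 0.54 with a median of 0.44. Of the 8, 2 had an unadjusted p under 0.05, against 9.17% of all transcripts tested. With any single other pool of these groups left out there were 1 or 2, and the median was lowest, at 0.27, without “SF + PGE2” replicate 5. None of the 8 was without overlap in TPM. Without “SF + PGE2” replicate 37 the log2 fold changes were 0.38 to 0.82. Then 7 of the 8 had an unadjusted p under 0.05 (background 9.21%), with a smallest adjusted p of 0.184. The 4 most variable members had 0.35 to 0.93, with a smallest adjusted p of 0.714. Without “SC” replicate 33 rank 49 turned to -0.25, and ranks 29 and 16 were at 0.41 and 0.54 in place of 0.89 and 0.85. Without “SC” replicate 25 the 4 lay between 0.67 and 1.22.

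The comparison of “SF” with “SF + PGE2” addressed PGE2 in serum-free media. Here the differences of members were small and mostly toward higher values in “SF”. edgeR called 0 members and 0 transcripts in all (background 0%), with an adjusted p of 1 for every member. At an unadjusted p under 0.05 there were 8 members, against 3.96% of all transcripts tested, all 8 higher in “SF” (background 2.02%) and 0 lower (background 1.94%). DESeq2 called 0 members (background 0.142% higher and 0.206% lower in “SF”, 76 transcripts in all), and limma-voom called 0 members and 0 transcripts. The count was 16 without “SF” replicate 3 (background 4.48%) and 16 without “SF + PGE2” replicate 27 (background 4.22%). It was 5 without “SF + PGE2” replicate 15 (background 3.07%) and 4 without “SF + PGE2” replicate 37 (background 3.12%). All of these members were higher in “SF”. Without “SF” replicate 13 there were 5 higher and 2 lower (background 4.31% in either direction). Without “SF” replicate 35 there were 5 and 1 (background 3.58%).

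ENSBTAT00000017710.6, at rank 21, had the smallest p of the members, with a log2 fold change of “SF” over “SF + PGE2” of 0.29 (SE 0.0842). ENSBTAT00000040082.5, at rank 31, had 0.32 (SE 0.0987), and its 4 “SF” pools were all above the 4 “SF + PGE2” pools. Ranks 17, 95 and 94 had 0.33, 0.33 and 0.34. In TPM, 5 members were higher in every “SF” pool than in any “SF + PGE2” pool (background 0.852%) and 0 were lower (background 1.83%). Over all members the median log2 fold change was 0.17, with 76 above 0 and 24 below, against -0.01 over all transcripts tested. The median was 0.07 without “SF” replicate 35, with 67 above 0 and 33 below, and 0.25 without “SF + PGE2” replicate 27. Of the 20 members under 600 bases 19 were above 0, with a median of 0.26, and without “SF” replicate 35 there were 15 with a median of 0.13. Without “SF + PGE2” replicate 37 all 20 were above 0, with a median of 0.14. In the run 7 of the 8 members were below 0 with all pools, between -0.31 and 0.05, and 2 of the 8 without “SF + PGE2” replicate 37, where the median turned from -0.16 to 0.07. The 4 most variable members were all below 0, between -0.79 and -0.49 with all pools, between -0.44 and -0.12 without “SF” replicate 35 and between -1.33 and -1.14 without “SF” replicate 13.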

How the data were processed

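RNA of 11 pools of bovine ICM was sequenced, and pools were grouped by the treatment in their sample labels. The authors ran Salmon (1.1.0 in the submitters' processing notes) on an index of Ensembl cDNA of ARS-UCD1.2. The deposited TPM and estimated counts are Salmon's own per transcript, the counts not normalized and the TPM divided by effective length and set to a common total. Salmon's settings and any read trimming: not given in the sources used here.

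TPM was averaged over the pools and the 100 highest transcripts kept. Estimated counts were rounded, filtered by filterByExpr over the 3 groups (22067 transcripts kept) and tested with edgeR 4.0.16 in R 4.3.3: quasi-likelihood test, TMM normalization, an offset for effective length, all 11 pools with a coefficient per group, and Benjamini-Hochberg adjustment over all transcripts tested. Fold changes are the fit's log2 values, with SE taken as the log2 fold change over the square root of F. The paper tested genes with DESeq2, which was an alternative here (1.42.0), as were limma-voom (limma 3.58.1), DESeq2's size factors, no filter, no length offset, only the groups compared, other choices of members and each pool left out. The choice by estimated counts per length was added after the data had been seen. The fit was tested on simulated counts drawn without differences of effective length, so its length offset was not part of that test. Tables were made with Python 3.11 and pandas 2.3.3.

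The members and the lists were chosen with earlier results of these data known. Members were named by level (ranks 1 to 10, and the 5 transcripts on each side of the threshold), by the 5 smallest p-values of a comparison, by the 5 largest and 5 smallest CVs, and by the 3 shortest and 3 longest, with at most 2 identifiers higher and 2 lower per comparison and the rest by rank. Gene lists and cell type markers need names and were not used. No sequences are shown for the members, since none was in the tables used here. P-values of group comparisons set a difference against the variation between pools, which may be partly technical.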

Additional observations from a re-analysis of the deposited data

Results flagged for a closer look

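Values of the named members and measures of the pools (shares, evenness, length taken off for fragments and total counts) were searched in 90 groups of 4 pools. A pool was flagged when it stood apart from the other 3 by Dixon's criterion, which chance meets in about 1 of 20 groups. In 5 groups there was one, each for the TPM of a single member. In “SF”, ENSBTAT00000015924.5 (rank 1) had 17246 TPM in replicate 3 and 21041 to 21468 in the others. ENSBTAT00000060566.1 (rank 3) had 12510 TPM in “SF” replicate 13 and 8153 to 8762 in the others, and ENSBTAT00000007429.4 (rank 5) had 16610 TPM in “SF” replicate 35 and 6985 to 8358 in the others. In “SF + PGE2”, ENSBTAT00000018795.3 (rank 37) had 2161 TPM in replicate 5 and 2462 to 2522 in the others, and ENSBTAT00000036142.3 (rank 94) had 1603 TPM in replicate 27 and 1258 to 1273 in the others.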

How the results depend on the processing

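No paired analysis was possible because the sources used here do not tie pools to production sessions and the groups share no replicate numbers. With the members chosen by estimated counts, the difference of “SF” minus “SF + PGE2” changed sign for the share of TPM (-0.374 percentage points) and the share of counts (-0.0219), that of “SC” minus “SF” for evenness (0.00239), and “SC” minus “SF + PGE2” for the share of counts became 2.04 points (exact p = 0.0286). With the 50 highest, the share of counts for “SF” minus “SF + PGE2” was -0.0682 points and evenness for “SC” minus “SF” 0.00515, and “SC” minus “SF + PGE2” was 1.51 points of TPM and 1.87 of counts (exact p = 0.0286 each). Causes were not tested.

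With each pool left out in turn, the differences ranged as follows. For “SC” minus “SF” they were 0.442 to 1.27 points of TPM, 0.897 to 2.29 of counts and -0.00387 to -0.000774 in evenness. For “SC” minus “SF + PGE2” they were 1.14 to 1.77, 1.01 to 2.33 and -0.00654 to -0.00386. For “SF” minus “SF + PGE2” they were 0.104 to 0.932, -0.476 to 0.591 and -0.00423 to -0.00114, the count share reversing without “SF” replicate 13 (-0.476) and “SF + PGE2” replicates 5 (-0.167) and 15 (-0.0645). Members at an unadjusted p under 0.05 numbered 14 to 25, 11 to 22 and 4 to 16 in these comparisons, and edgeR called 0 in each. The share of all transcripts tested at that p was 8.14% to 12.6%, 6.58% to 9.54% and 3.07% to 4.48%. With all pools, DESeq2 called 5 members in the first comparison and 4 in the second. Of the log2 fold changes of single members, that of rank 49 for “SC” over “SF + PGE2” ranged from -0.25 (without “SC” replicate 33) to 0.67. The medians and splits over lists of members that turned or moved with a single pool are given with those lists in the report. The numbers of pools, 3 or 4 a group, limit what the tests can show.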
